A study of Mus musculus with 89 samples.

Results

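The 7 genes Fabp1, Fabp2, Fabp6, Rbp2, Cd36, Scarb1 and Acsl5 encode proteins that bind, import or activate fatty acids, retinol, bile acids and sterols in the small intestine. They were taken by name, and all 7 were present in both deposited tables of unique molecular identifiers (UMIs, one per captured mRNA molecule), as 7 of 27538 genes in the table of clumps and 7 of 23379 genes in the table of single cells. Clumps are groups of a few neighbouring epithelial cells that stayed attached during mild dissociation of the jejunum and were sorted together into a well, so that an enterocyte in the clump shows where on the crypt-villus axis the whole clump sat. The clumps compared came from 5 mice, sorted by DNA content as pairs of cells in every mouse and also as larger clumps in mice 1, 4 and 5. Clumps of mouse 6, gated only above the DNA content of single cells, stayed out of the comparisons, and single cells came from 4 mice. All animals were untreated C57BL/6 males on regular chow, labelled 3 months old except for 3 plates of single-cell mouse 2 labelled 4 months, and tissue was dissociated with EDTA. Each table has its own numbering of mice, and equal numbers in both need not name 1 animal.

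Fatty acid binding proteins are small cytoplasmic carriers that hold a long-chain fatty acid or another lipid inside a barrel-shaped cavity. Absorptive enterocytes take up fatty acids and retinol from the gut lumen, activate the fatty acids to acyl-CoA, esterify both and export them in chylomicrons. Fabp1 (the liver type) and Fabp2 (the intestinal type) are abundant fatty acid carriers of enterocytes, Fabp6 is the bile acid carrier of the ileum, and Rbp2 carries retinol and retinal. Cd36 is a membrane receptor that takes up long-chain fatty acids, Scarb1 is a lipoprotein receptor that also takes up cholesterol and carotenoids, and Acsl5 is an acyl-CoA synthetase.

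In the mouse genome build GRCm38, Fabp1 lies at chr6:71199827-71205023, Fabp2 at chr3:122895072-122899506, Rbp2 at chr9:98486115-98509781 and Acsl5 at chr19:55251938-55297720, all on the forward strand. Fabp6 lies at chr11:43596049-43601540, Cd36 at chr5:17781690-17888801 and Scarb1 at chr5:125277087-125341094, all on the reverse strand. RefSeq promoter sequence of the same build was matched for 6 of the 7 genes, all but Scarb1. The bases just before the start sites of the 3 binding proteins with the most UMIs are shown because these genes rose together from crypt to villus. The stretches are chr6:71199629-71199826 for Fabp1, chr3:122894822-122895071 for Fabp2 and chr9:98490287-98490536 for Rbp2. The Rbp2 stretch lies in the first intron of a longer annotated transcript, and the Fabp1 stretch ends where an annotated exon begins. Capitals mark matches to 5 motifs searched on both strands.
Fabp1: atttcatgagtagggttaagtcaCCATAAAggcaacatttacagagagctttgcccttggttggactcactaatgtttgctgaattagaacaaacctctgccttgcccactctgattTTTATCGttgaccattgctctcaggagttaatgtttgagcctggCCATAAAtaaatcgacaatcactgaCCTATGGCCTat
Fabp2: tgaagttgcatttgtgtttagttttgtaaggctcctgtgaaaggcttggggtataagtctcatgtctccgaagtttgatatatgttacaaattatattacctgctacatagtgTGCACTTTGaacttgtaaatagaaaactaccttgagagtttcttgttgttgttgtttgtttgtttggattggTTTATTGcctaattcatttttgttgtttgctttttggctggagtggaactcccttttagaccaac
Rbp2: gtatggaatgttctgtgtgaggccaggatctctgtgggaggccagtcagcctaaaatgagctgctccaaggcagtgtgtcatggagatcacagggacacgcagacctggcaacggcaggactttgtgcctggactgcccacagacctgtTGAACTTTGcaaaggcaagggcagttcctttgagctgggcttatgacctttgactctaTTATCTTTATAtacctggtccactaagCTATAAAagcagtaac
The motifs were CAAAGTNCA for HNF4, found in 1.19% of all RefSeq promoters searched over the same 250 bases, the DR1 element, a direct repeat bound by nuclear receptors (2.55%), AGATAA for GATA factors (9.99%), TTTATNG for CDX factors (9.81%) and TATAAA for the TATA box (12.4%). Fabp2 and Rbp2 each held an HNF4 match, whose first base lay at -137 and -101 from the RefSeq start site. Fabp1 held a direct repeat match at -64. CDX matches were found at -227, -133 and -89 in Fabp1, at -65 in Fabp2 and at -16 in Rbp2. In Rbp2 a GATA match at -43 overlapped a TATA match at -38, and the CDX match overlapped a second TATA match at -15. Fabp1 also held a TATA match at -30, inside the annotated exon and not printed, and Fabp6 one at -29. The windows of Cd36 and Acsl5 held none of these letters. A match is a description of the letters and not a binding site.

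A total of 5883 clumps and 5199 single cells passed the filters. UMIs were summed per mouse and zone or cell type, and the mouse was the replicate. The sums of clumps held 91175 to 19288009 UMIs, and the crypt sum of mouse 4, with 2141 clumps, was far above the others. A level is given throughout as UMIs per 1000000 UMIs of nuclear protein-coding genes, because these genes held 45.1% to 73.6% of the UMIs in clump sums but 19.1% to 32.9% in enterocyte-like sums of single cells. The libraries count 3′ ends of mRNAs, so a level does not scale with gene length. Zones were assigned by the enterocyte landmark genes of the study with Fabp1 and Fabp2, both mid-villus landmarks, taken out, so that none of the 7 genes placed a clump. There were 3739 crypt, 1093 mid-villus and 1051 villus tip clumps. A list of 13 enterocyte markers summed to levels of 4354 to 18570 in crypt, 52825 to 64527 in mid-villus and 82416 to 118461 in tip clumps, in the order of the zone names. Markers of other cell types also moved with the zones. Paneth cell markers ran from 118 to 26459 in crypt clumps and 163 to 1391 in tip clumps, stem and dividing cell markers from 736 to 2009 and from 80.7 to 545, and goblet cell markers from 6307 to 11787 and from 9573 to 35054. Their part in the results below was not tested. In a sum of clumps, fewer cells of a type and less RNA per cell cannot be told apart.

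The 2 enterocyte fatty acid carriers, the retinol carrier, the fatty acid receptor Cd36 and the synthetase Acsl5 were all higher in mid-villus than in crypt clumps, in 5 of 5 mice and with no overlap between the zones. How many of all genes tested did the same was not counted. Fabp2 had levels of 5875, 4596, 5632, 1052 and 3008 in crypt clumps of mice 1 to 5. In mid-villus clumps its levels were 45710.0, 29993, 34137, 18909 and 23898, and in tip clumps 30118, 28367, 39157, 18322 and 33470.4. Fabp2 was thus low in every crypt sum, and its mid-villus and tip values overlapped. Its mid-villus level was 8.60 times the crypt level (log2 change 3.10 ± 0.47 SE, adjusted p = 3.93e-05, edgeR quasi-likelihood test with Benjamini-Hochberg adjustment over all 6392 genes tested, n = 5 mice per zone). The tip against crypt change was 3.24 ± 0.48 (adjusted p = 1.42e-05), and the tip against mid-villus change was 0.13 (adjusted p = 0.904), with 3 of 5 mice lower at the tip.

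Fabp1 peaked in the mid-villus. Its levels were 1071, 3707, 2192, 890.2 and 1016 in crypt sums, 7431, 15114, 9366, 13194 and 5979 in mid-villus sums, and 2623, 7767, 3893, 3364 and 1783 at the tip. The mid-villus was above both other zones in 5 of 5 mice, without overlap with the crypt but with overlap with the tip. The mid-villus against crypt change was 2.73 ± 0.48 on the log2 scale (adjusted p = 0.00016) and the tip against crypt change was 1.51 ± 0.46 (adjusted p = 0.00979). The fall from mid-villus to tip by 1.22 ± 0.46 did not pass (adjusted p = 0.106), and it passed when the mouse was taken as a block (-1.36 ± 0.22, adjusted p = 1.58e-05), a fit in which 1599 instead of 543 genes were called in this comparison.

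Rbp2 had levels of 656, 901, 1083, 155 and 255 in crypt sums, 5055, 3912, 5426, 2933 and 1548 in mid-villus sums, and 4489.5, 3285, 4596, 1804 and 1236 at the tip. It was 7.14 times as high in the mid-villus as in the crypt (log2 change 2.84 ± 0.54, adjusted p = 0.000312) and 6.59 times as high at the tip as in the crypt (2.72 ± 0.54, adjusted p = 0.000302). From mid-villus to tip all 5 mice were lower, by a fitted log2 change of -0.12 that did not pass (adjusted p = 0.93). Acsl5 levels were 402, 824, 633, 355 and 305 in crypt sums, 1293, 2384, 1745, 2737 and 1161 in mid-villus sums, and 898, 2071, 1301, 1842 and 856 at the tip. The crypt values did not overlap with those of either other zone. Its log2 changes from the crypt were 2.08 ± 0.36 for the mid-villus (adjusted p = 0.000121) and 1.81 ± 0.36 for the tip (adjusted p = 0.000283). In the pairs alone, without the larger clumps, the tip against crypt changes of Acsl5 (1.32, adjusted p = 0.0621) and Fabp1 (1.10, adjusted p = 0.169) did not pass.

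**Figure D1:**
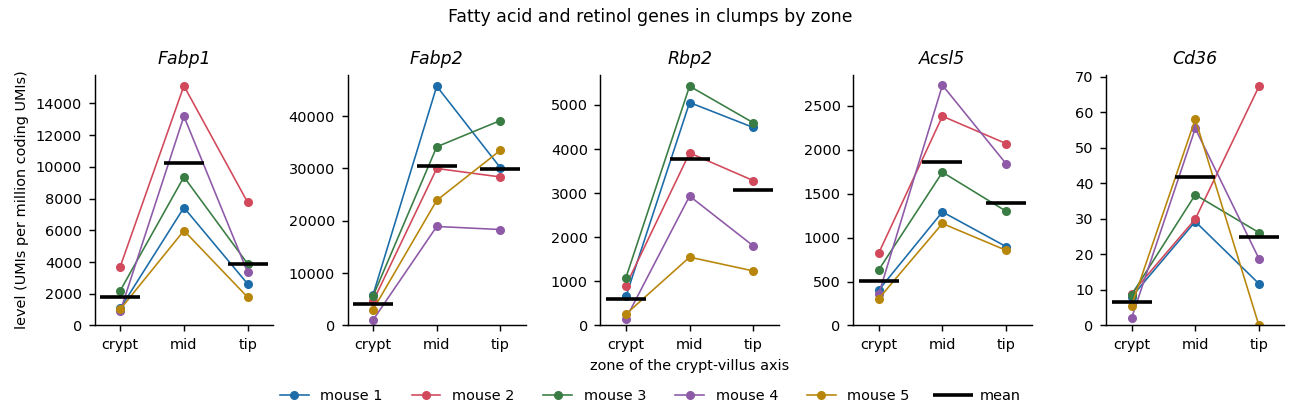
Levels of the genes in crypt, mid-villus and villus tip clumps, as UMIs per 1000000 coding UMIs, with 1 point per mouse. Fabp2, Fabp1, Rbp2, Acsl5 and Cd36 sat lower in the crypt than in the mid-villus in all 5 mice, and Fabp1 was lower again at the tip.

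Of the uptake receptors, Cd36 rested on few UMIs and Scarb1 was close to undetected. Cd36 had 65 UMIs in crypt, 86 in mid-villus and 47 in tip clumps. Its levels were 8.02, 8.96, 8.62, 2.08 and 5.55 in crypt sums, 29.2, 29.9, 36.8, 55.4 and 58.1 in mid-villus sums, and 11.7, 67.2, 26.1, 18.8 and 0 at the tip. Cd36 was higher in the mid-villus than in the crypt in all 5 mice, and at the tip in 4 of 5. Both changes passed, at 2.83 ± 0.51 (adjusted p = 0.000172) and 2.78 ± 0.54 (adjusted p = 0.000255), but without mouse 3 Cd36 was too low to be tested. Scarb1 had 11, 7 and 5 UMIs in the 3 zones and was too low to be tested.

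Across all genes tested, 40.9% were called between mid-villus and crypt (19.6% higher in the mid-villus), 54.2% between tip and crypt (25.2% higher at the tip) and 8.49% between tip and mid-villus. Of the 6 genes tested here, 5 were higher in the mid-villus than in the crypt, 5 were higher in tip than in crypt clumps, and 0 were called between tip and mid-villus. For that count of 0 by edgeR, 1 gene, Fabp1, had an unadjusted p under 0.05, and a DESeq2 Wald test called 1. Calls over all genes depended on the scaling, in that 47.9% of the genes called between mid-villus and crypt were higher with TMM normalization and 32.7% with DESeq2 size factors, which moved the median change of all genes from 0.08 to -0.18. Under either scaling the 5 genes kept their direction in both comparisons with the crypt.

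Fabp6, the ileal bile acid carrier, spread widely between mice, with zone means of 364, 219 and 302 in crypt, mid-villus and tip clumps but mouse levels over all zones from 7.22 to 854. Its levels in mice 1 to 5 were 195, 23.3, 613, 7.29 and 982 in crypt, 185, 2.49, 399.8, 5.04 and 503 in mid-villus, and 23.5, 0, 751, 0 and 737 in tip clumps. Fabp6 was lower in the mid-villus than in the crypt in 5 of 5 mice, with overlap, and lower at the tip than in the mid-villus in 3 of 5, and none of the zone changes passed. The changes were -0.63 ± 1.27 for mid-villus against crypt (95% interval -3.11 to 1.86, adjusted p = 0.738) and 0.11 ± 1.26 for tip against crypt (-2.36 to 2.58, adjusted p = 0.952), although 4 of 5 mice were lower at the tip. Over all zones the 5 mice had 445, 14, 2604, 85 and 234 Fabp6 UMIs, for levels of 181, 11.0, 578, 7.22 and 854. The UMIs were concentrated in few clumps, as between 0.438% and 17.8% of the clumps of a mouse held any, and the tenth of clumps with the most held 94.4% to 100% of them. A single clump held up to 236. They were not limited to single plates in mice 1, 3 and 5, in which every plate held Fabp6 UMIs, whereas 6 of 10 plates of mouse 2 and 1 of 9 plates of mouse 4 held none.

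Other genes of bile acid handling were listed beside Fabp6 in the same mice. Slc10a2, the bile acid importer of the apical membrane, had levels of 6.53, 7.86, 22.4, 0.0849 and 25.6 in mice 1 to 5 from 16, 10, 101, 1 and 7 UMIs. Slc51a, a subunit of the basolateral bile acid exporter, had levels of 312, 385, 370.5, 138 and 431, a narrower range than that of Fabp6. Slc51b, the other subunit, had levels of 297, 312, 625, 45.7 and 332, with the lowest in mouse 4 as for Fabp6. Fgf15, a hormone induced by bile acids, had levels of 7.34, 0, 1.33, 1.02 and 18.3. The labels name the jejunum for all plates, and the study's methods state that 1 region of it was used throughout. In single enterocyte-like cells Fabp6 had 2 UMIs, both in 1 cell of 2533.

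**Figure D2:**
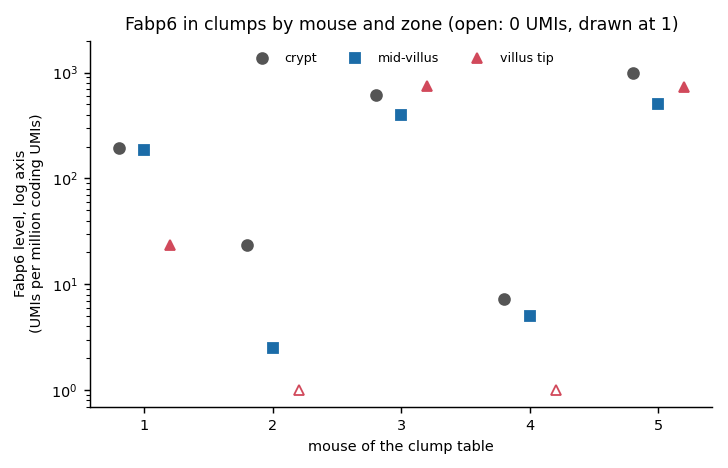
Fabp6 level (UMIs per 1000000 coding UMIs, log axis) in each zone for each of the 5 clump mice, with open symbols at 1 for sums with 0 UMIs. Levels ran from 7.29 to 982 across mice in the crypt, from 2.49 to 503 in the mid-villus and from 0 to 751 at the tip.

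Single enterocyte-like cells, sorted as single cells, gave the same question, although no doublet caller was run. They were placed in the zones by the same landmarks, with 399 of them in the crypt, 747 in the mid-villus zone and 1265 at the tip, in sums of 15114 to 1986988 UMIs. The smallest, the crypt sum of mouse 1, held 6 cells. Markers of other types moved with these zones too, as lymphocyte markers summed to 455 to 11369 in crypt, 30.1 to 625 in mid-villus and 40.9 to 997 in tip sums, and enteroendocrine markers to 23.8 to 12432, 101 to 278 and 123 to 392. Stem and dividing cell markers summed to 799.8 to 2577 in crypt and at most 210.0 in the other zones, and the part of these cells in the changes below was not tested. Coding genes held 34.3% to 43.6% of the UMIs in crypt, 22.1% to 33.7% in mid-villus and 18.5% to 29.4% in tip sums, so the denominator of a level moved with the zone, while the fits used all UMIs. Of the 5 genes tested between mid-villus and crypt, 5 were higher in the mid-villus, where 33.5% of the 4322 genes were called and 15.4% were higher. Fabp2 levels in mice 1 to 4 were 1971, 3708, 3932 and 3595 in crypt cells, 12204, 15746, 19377 and 13047 in mid-villus cells, and 6401, 9718, 10456.3 and 8404 at the tip. The 3 zones of Fabp2 did not overlap. The mid-villus against crypt change was 2.29 ± 0.37 (adjusted p = 2.93e-05), the tip against crypt change was 1.72 ± 0.37 (adjusted p = 0.000334), and the tip against mid-villus change of -0.57 ± 0.36 did not pass (adjusted p = 0.243, lower in 4 of 4 mice).

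Fabp1 in single enterocyte-like cells was again highest in the mid-villus. Its levels were 3184, 3243, 3324 and 2542 in crypt cells, 6584, 9881, 11215 and 5796 in mid-villus cells, and 1911, 2492, 3462 and 1839 at the tip. The mid-villus stood above both other zones without overlap, and crypt and tip overlapped. The mid-villus against crypt change was 1.65 ± 0.35 (adjusted p = 0.000529), and from mid-villus to tip Fabp1 fell by 1.58 ± 0.34 on the log2 scale (adjusted p = 0.003), a 2.99-fold drop. Without mouse 2 that fall was 1.50 and did not pass (adjusted p = 0.0623). Tip and crypt differed by 0.07 ± 0.34 (95% interval -0.59 to 0.73, adjusted p = 0.868), although mean levels were 2426 in tip and 3073 in crypt cells and 3 of 4 mice had the lower value at the tip. Per 1000000 of all UMIs, Fabp1 ran from 1057 to 1389 in crypt and from 353 to 717 in tip cells, without overlap, and in a fit on coding genes alone the change was -0.31 (adjusted p = 0.448), so its direction between these zones depended on the scaling. Fabp1 was the 1 gene of the 7 called between tip and mid-villus, where 21.8% of all genes were called (944 genes, and 1434 with mouse as a block) and 10.7% were lower at the tip.

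Rbp2 levels were 758, 1163, 1149 and 808 in crypt, 4234, 3954, 5345 and 3243 in mid-villus, and 4406, 2884, 3576 and 3090.5 in tip cells. The crypt lay below both other zones in all 4 mice. Rbp2 rose by 2.22 ± 0.36 from crypt to mid-villus (adjusted p = 2.48e-05) and stood 2.18 ± 0.36 above the crypt at the tip (adjusted p = 1.51e-05). Acsl5 levels were 303, 930.2, 769 and 879 in crypt, 1959, 2037, 2618 and 1753 in mid-villus, and 1611, 1092, 1766 and 1355 in tip cells. Its changes from the crypt were 1.53 ± 0.36 for the mid-villus (adjusted p = 0.00183) and 1.22 ± 0.36 for the tip (adjusted p = 0.00554), and per 1000000 of all UMIs its values in crypt (132 to 366) and tip cells (280 to 399) overlapped. Cd36 had 13, 59 and 37 UMIs in the 3 zones, and its mid-villus against crypt change of 1.38 ± 0.49 passed (adjusted p = 0.0327) but was lost without mouse 3, without mouse 4, and in a fit on coding genes alone, and Cd36 was too low to be tested without mouse 2, with all landmarks and with a minimum of 20 landmark UMIs. At the tip against the crypt, 3 of the 5 genes were called, all higher, beside 59.3% of all genes called and 31.0% higher. The test of the difference between clumps and single cells was not run, since the 2 tables were separate experiments.

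**Figure D3:**
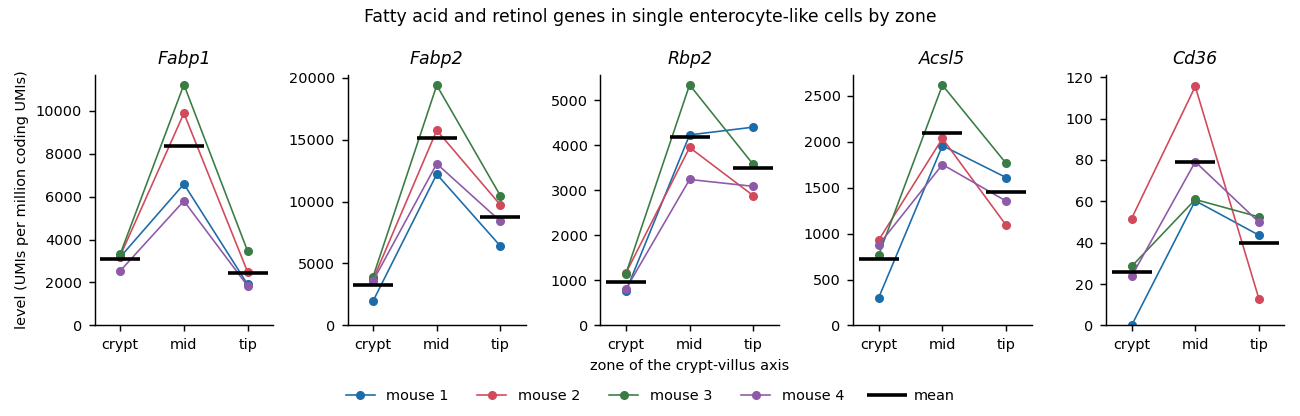
Levels in single enterocyte-like cells by zone (UMIs per 1000000 coding UMIs), with 1 point for each of 4 mice. Fabp1 and Fabp2 were highest in the mid-villus, and the mid-villus values of Fabp1, 5796 to 11215, lay above all its crypt and tip values.

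Single cells were clustered without the 7 genes and named by marker lists, giving 2533 enterocyte-like, 186 tuft-like, 213 goblet-like, 250 enteroendocrine-like, 145 B and plasma cell-like and 1662 lymphocyte-like cells. The lymphocyte-like level served as the level of free RNA, at 3.68% of the mean enterocyte-like level for Fabp2, 2.91% for Rbp2, 4.68% for Fabp1 and a median of 3.39% for the 13 enterocyte markers. Acsl5 stood higher, at 10.2%, and made up 14.2% to 20.6% of the UMIs of the 7 genes in lymphocyte-like sums of mice 2 to 4 against 6.75% to 10.4% in enterocyte-like sums, so for Acsl5 an overlap with lymphocyte-like values does not place it at the level of free RNA. The plates were sorted through different gates (Epcam, CD24, CD45 with Epcam, or only Epcam), so the types were unevenly drawn from plates. The 13 enterocyte markers summed to 48309 to 105015 in enterocyte-like sums, 962 to 4139 in tuft-like, 3810.4 to 8446 in goblet-like, 2783 to 5599 in enteroendocrine-like and 0 to 3566 in lymphocyte-like sums. Of the 7 genes, 5 passed the filter on low counts in this fit, all but Fabp6 and Cd36.

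In enterocyte-like cells, 4 of the 5 genes tested were above the lymphocyte-like level in every mouse, beside 59.0% of the 4359 genes called and 26.5% higher. With DESeq2 size factors the share of called genes that were higher moved from 45.0% to 73.3%, and the median change of all genes from -0.17 to 0.88. Fabp2 had levels of 7202, 11296, 11993 and 9133 in enterocyte-like cells of mice 1 to 4 against 0, 452, 489 and 515 in lymphocyte-like cells, a log2 change of 4.89 ± 0.71 (adjusted p = 1.11e-07). Rbp2 had 4324, 3037, 3461 and 2663 against 0, 133, 149 and 111 (5.19 ± 0.67, adjusted p = 8.07e-09). Fabp1 had 2636, 5926, 6765 and 3475 against 0, 290.3, 392 and 198 (4.45 ± 0.74, adjusted p = 1.42e-06). Acsl5 had 1641, 1472, 1758 and 1394 against 94.7, 157, 172 and 214 (3.57 ± 0.56, adjusted p = 5.15e-07). The lymphocyte-like sum of mouse 1 held only 12 cells, and a single Acsl5 UMI was all it held of the 7 genes. Cd36 was seen in 104 of 2533 enterocyte-like cells (4.11%, exact binomial interval 3.37% to 4.95%) and in 4 of 1662 lymphocyte-like cells (0.241%), at median depths of 2830.0 and 851 UMIs per cell.

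Tuft-like cells held Fabp1 far above the level of free RNA, while their Fabp2, Rbp2 and Acsl5 values overlapped those of lymphocyte-like cells. Tuft cells are chemosensory epithelial cells that detect luminal signals and release cytokines and lipid mediators. The tuft-like sums of mice 1 to 3 held 19, 157 and 6 cells, so most cells came from mouse 2. Fabp1 levels in these sums were 8633, 8217 and 6793, the last from 44 UMIs, above the lymphocyte-like values of 0 to 392. They also lay above the enterocyte-like values of 2636 to 6765, which pool all zones with most placed cells at the tip, but within the 5796 to 11215 of mid-villus enterocyte-like cells. Against lymphocyte-like cells the log2 change was 4.67 ± 0.76 (adjusted p = 4.0e-06), a 25.5-fold difference, and Fabp1 was the 1 gene called of the 5 tested, beside 34.0% of all genes called and 14.2% higher. With DESeq2 size factors the share of called genes that were higher in tuft-like cells moved from 41.9% to 74.0%, and Fabp1 stayed higher. Against enterocyte-like cells, a comparison added after the values had been seen, the change of 0.22 ± 0.69 did not pass (95% interval -1.12 to 1.57, adjusted p = 0.879).

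Fabp2 had levels of 623, 187 and 463 in tuft-like cells, Rbp2 178, 87.4 and 154, and Acsl5 178, 68.7 and 309. None of these differed from the lymphocyte-like level by the test (adjusted p = 0.767, 0.904 and 0.564). Against enterocyte-like cells Rbp2 was 41.1-fold, Fabp2 38.1-fold and Acsl5 18.1-fold lower (adjusted p = 8.5e-07, 2.68e-06 and 8.81e-06), beside 22.9% of all genes called and 13.0% lower. Fabp1 was thus at 168% of the mean enterocyte-like level over all zones while Fabp2 was at 4.29%, Rbp2 at 4.15%, Acsl5 at 11.8% and the median of the 13 enterocyte markers at 3.16%. Fabp1 UMIs were found in 176 of 186 tuft-like cells (94.6%) against 65.8% of enterocyte-like and 12.3% of lymphocyte-like cells, at median depths of 2206.5, 2830.0 and 851 UMIs. With each cell thinned to 500 UMIs, and 7, 40 and 332 shallower cells left out, the shares were 76.0%, 32.9% and 7.07%. In mouse 2, 70 of the 157 tuft-like cells held no UMI of any enterocyte marker or of the other 6 genes, and their Fabp1 level was 8290 against 8217 over all 157, with a UMI in 64 of the 70.

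Goblet-like cells, the mucus secreting type, held Fabp2 above the level of free RNA and below that of enterocytes. Fabp2 levels were 1336, 1333, 1306 and 1166 in mice 1 to 4, between the lymphocyte-like maximum of 515 and the enterocyte-like minimum of 7202 in every mouse. The log2 change was 2.19 ± 0.64 against lymphocyte-like cells (adjusted p = 0.00586) and -2.70 against enterocyte-like cells (adjusted p = 0.00132, a 6.51-fold difference, with 4 of 5 genes lower beside 18.9% of all genes called and 12.4% lower). It was the 1 gene called of 5 against the lymphocyte-like cells, beside 38.2% of all genes called and 16.2% higher. With DESeq2 size factors 76.3% instead of 42.3% of the called genes were higher, and Fabp1, Rbp2 and Acsl5 were called too. Fabp1 levels in goblet-like cells were 157, 404, 285 and 0, Rbp2 levels 255, 131, 118 and 219, and Acsl5 levels 177, 120.2, 157 and 146, and all 3 overlapped the lymphocyte-like values. Fabp2 UMIs were found in 141 of 213 goblet-like cells (66.2%; 27.1% after thinning) against 13.4% of lymphocyte-like cells (7.29%). Fabp2 stood at 13.0% of the mean enterocyte-like level, beside a median of 4.07% for the 13 enterocyte markers. Among the markers, Krt20 stood at 61.7% (mean levels 2669 against 4328). S100g stood at 332%, but as a ratio of very low mean levels (36.4 against 11.0). In mice 2, 3 and 4, the 3, 3 and 2 goblet-like cells with no UMI of any enterocyte marker or of the other 6 genes held 1, 0 and 0 Fabp2 UMIs. Scarb1 and Cd36 had 0 UMIs in 213 goblet-like cells, which allows up to 1.41% of cells with a UMI and does not limit the cells that express them.

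Enteroendocrine-like cells, which secrete peptide hormones and serotonin, held Scarb1 above the levels of lymphocyte-like and enterocyte-like cells. Scarb1 levels were 73.7, 208, 214 and 222 in mice 1 to 4, from 1, 49, 3 and 1 UMIs, against 0 to 16.9 in lymphocyte-like, 0 to 11.2 in enterocyte-like and 0 to 24.97 in tuft-like sums. Sums at 0 UMIs with few cells, such as those of lymphocyte-like mouse 1 and tuft-like mouse 3, would allow levels up to 284 and 463 at a floor of 3 counts, so they do not show a lower level. The log2 change was 3.88 ± 0.68 against lymphocyte-like cells (adjusted p = 1.6e-05) and 4.65 ± 0.63 against enterocyte-like cells (adjusted p = 7.81e-08). Scarb1 passed the low-count filter only through the enteroendocrine-like sums, where it was high, so these p-values are no evidence apart from that selection. The change rested largely on mouse 2, which gave 218 of the 250 cells. Without mouse 2 Scarb1 was too low to be tested and 0 of the 4 genes tested were called. In mice 1, 2 and 4, the 1, 22 and 1 enteroendocrine-like cells with no UMI of an enterocyte marker or of the other 6 genes held 1, 0 and 0 Scarb1 UMIs. Scarb1 UMIs were found in 40 of 250 enteroendocrine-like cells (exact binomial interval 11.7% to 21.1%, and 4.55% after thinning) against 0.316% of enterocyte-like and 0.481% of lymphocyte-like cells (0.0802% and 0.301% after thinning), at median depths of 1827, 2830.0 and 851 UMIs.

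Fabp1, Fabp2 and Rbp2 in enteroendocrine-like cells overlapped the lymphocyte-like levels. Fabp1 had levels of 221, 445, 285 and 222, Fabp2 295, 360.5, 499 and 222, and Rbp2 221, 288, 71.4 and 222. Acsl5 was at 0, 67.9, 71.4 and 0, and its change of -1.72 against lymphocyte-like cells did not pass (adjusted p = 0.0598) but passed with mouse as a block (-1.60, adjusted p = 0.0398). Scarb1, tested only because these sums carried it past the filter, was the 1 gene called of 5, beside 26.7% of all genes called and 11.4% higher. With DESeq2 size factors 72.0% instead of 42.5% of called genes were higher. Against enterocyte-like cells, Fabp2, Acsl5, Rbp2 and Fabp1 were lower by log2 changes of -5.39, -5.29, -4.55 and -4.36, while Scarb1 was higher, beside 30.3% of all genes called, 10.5% higher and 19.8% lower. In B and plasma cell-like sums of mice 2 to 4, 0 of 5 genes were called against lymphocyte-like cells by edgeR, beside 10.4% of all genes, with 0 at an unadjusted p under 0.05 and 0 by DESeq2, and the share of called genes that were higher was 35.4% with TMM and 46.8% with size factors. Fabp2 levels there were 171, 940 and 796. Fabp6 had 0 UMIs in all 5 types other than enterocyte-like, which allows up to 0.181% of lymphocyte-like and 2.07% of B and plasma cell-like cells with a UMI.

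**Figure D4:**
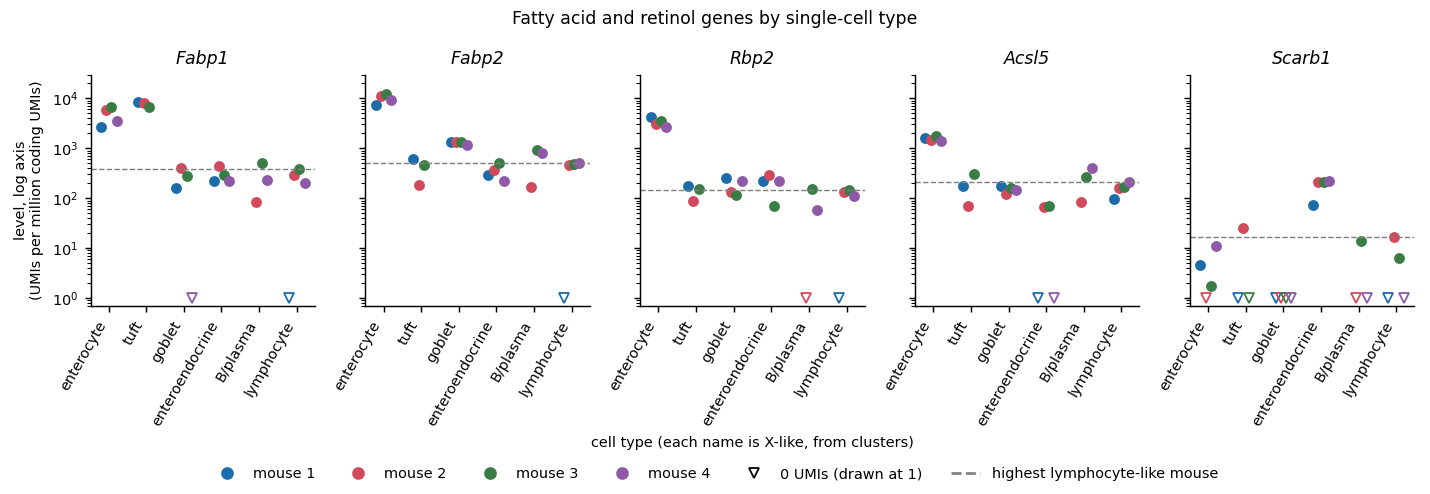
Levels of Fabp1, Fabp2, Rbp2, Acsl5 and Scarb1 in the 6 cell types (UMIs per 1000000 coding UMIs, log axis), with 1 point per mouse, open triangles at 1 for 0 UMIs and a dashed line at the highest lymphocyte-like mouse. Fabp1 in tuft-like cells (6793 to 8633) and Scarb1 in enteroendocrine-like cells (73.7 to 222) stood above that line in every mouse.

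The make-up of the summed UMIs of the 7 genes differed by type in a description that needs no level. Fabp2 made up 50.4% ± 3.85 (SD, n = 4 mice) of them in enterocyte-like and 70.7% ± 3.91 (n = 4) in goblet-like sums. Fabp1 made up 91.2% ± 4.03 (n = 3) in tuft-like and 23.2% ± 5.46 (n = 4) in enterocyte-like sums. Scarb1 made up 15.7% ± 4.90 (n = 4) in enteroendocrine-like sums. In 25 two-sided exact permutation tests of a share against the lymphocyte-like cells, none passed after adjustment (smallest adjusted p = 0.119). These tests cannot decide, since before adjustment the smallest possible p is 0.0286 for 4 against 4 mice and 0.0571 for 3 against 4. With 3 tuft-like mice no share could pass, and the lymphocyte-like share of mouse 1 rested on 1 UMI.

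**Figure D5:**
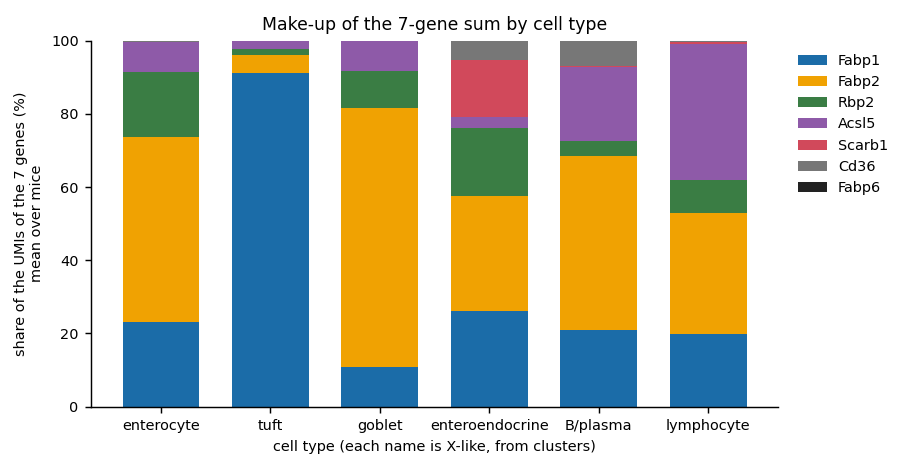
Mean share over mice (percent, no error bars) of each gene in the summed UMIs of the 7 genes, by cell type. Fabp1 filled 91.2% of the tuft-like bar and Fabp2 70.7% of the goblet-like bar, and the Acsl5 part of the lymphocyte-like bar includes mouse 1, whose only UMI was Acsl5.

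Within secretory types, cells were also split at the median of a tip score, the share of tip among tip and crypt landmark UMIs of that type. Fabp1 in tuft-like cells of mice 1 and 2 had levels of 9398 and 6501 in the crypt-ward and 8069 and 9996 in the tip-ward group, a change of 0.35 ± 0.29 that did not pass (adjusted p = 0.995). The 2 mice moved in opposite directions. In mouse 1 the crypt-ward group held only 5 cells and the tip-ward group 13, against 83 and 72 in mouse 2. Fabp2 in goblet-like cells had levels of 2050.3, 1394, 1378 and 827 crypt-ward and 1098, 1202, 1122 and 1714 tip-ward (-0.11, adjusted p = 0.858). With edgeR, 0 of 1172 genes were called in tuft-like cells (12 at an unadjusted p under 0.05), 6.07% of 313 genes were called in goblet-like cells (74 instead of 19 genes with mouse as a block, and 4 instead of 0 in tuft-like cells), and no gene of the 7 was high enough to be tested in enteroendocrine-like cells.

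Lists of other genes of lipid and retinoid handling were counted in the clumps, and the values given for single genes are log2 changes from crypt to tip that passed the edgeR test. The shares of all genes called, 40.9% between mid-villus and crypt and 54.2% between tip and crypt (25.2% higher), are the background of the counts that follow. Of 12 tested genes of triglyceride synthesis and lipid droplets, 9 were higher and 0 lower in the mid-villus than in the crypt, and 10 were higher and 0 lower at the tip, with a median log2 change at the tip of 1.31 against 0.00 over all genes. Among them, Lipe, a lipase, rose by 2.70 and Dgat2, which makes the last step of triglyceride synthesis, by 2.65, while the smallest called changes were those of Mogat2, the monoacylglycerol acyltransferase (1.12), and Abhd5, a lipase activator (1.14). With DESeq2 size factors 9 were higher at the tip and 0 lower. Of 6 tested genes of fatty acid uptake and activation, 2 were higher in tip than in crypt clumps, Slc27a4, a fatty acid transporter (2.85), and Acsl3, an acyl-CoA synthetase (2.78), and 1 was lower, Got2 (-2.09), which is known as a mitochondrial aminotransferase. Mean levels of Slc27a4 were 218 in crypt clumps, 929 in those of the mid-villus and 1249 at the tip (n = 5 mice).

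Of 15 tested genes of fatty acid oxidation, 3 were higher and 4 lower in tip than in crypt clumps, a share called near that of all genes. Acaa1b, a peroxisomal thiolase, rose by 0.99, while Cpt1a, the gate of mitochondrial oxidation, fell by 1.96 and Acaa2, a mitochondrial thiolase, by 1.87. Of 10 tested genes of retinoid handling, 4 were higher in the mid-villus than in the crypt, and at the tip 1 was higher and 1 lower, below the share of all genes. Those were Bco1, which cleaves beta-carotene to retinal (5.19; mean levels 3.42, 41.2 and 119.5 in crypt, mid-villus and tip), and Dhrs3, a retinal reductase (-1.09). Bco2 and Rdh7 were the 2 retinoid genes lower at the tip than in the mid-villus, outside the naming rule and chosen after their values were seen.

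Of 4 tested genes of bile acid handling, 2 were higher in tip than in crypt clumps, Abcc2 (2.08) and Slc51a (0.72), and 1 was lower, the bile acid receptor Nr1h4 (-1.28). With DESeq2 size factors 1 of these was higher and 1 lower. Of 16 tested transcription factors, 5 were higher and 3 lower at the tip, and with DESeq2 size factors 1 was higher and 3 lower, and the share called was near that of all genes. Klf4 (4.13) and Nr1i2 (1.10) were the 2 highest outside the landmark genes, and Srebf2 (-2.03) and Klf5 (-1.14) were the 2 lowest. Mean levels of Klf4 were 83.1, 384 and 1153. Of the other fatty acid binding proteins, 0 of 5 in the table were high enough to be tested in clumps.

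In single cells a few genes of these lists stood out by type and were named after their values were seen. Fabp5, another fatty acid binding protein, had levels of 1399.6, 1459, 1712 and 1332 in enteroendocrine-like cells against 0 to 16.9 in lymphocyte-like and 1.60 to 11.6 in enterocyte-like cells, with log2 changes of 6.37 and 7.67. No p is given for Fabp5, since it was picked on these values and passed the low-count filter only through the enteroendocrine-like sums. Ffar1, a receptor for long-chain fatty acids, had levels of 884, 178, 71.4 and 666 in enteroendocrine-like cells. These came from 12, 42, 1 and 3 UMIs in 11, 218, 13 and 8 cells. Adh1, an alcohol and retinol dehydrogenase, had levels of 7476, 6299.8 and 8028 in the tuft-like cells of mice 1 to 3 against 111 to 901 in enterocyte-like and 0 to 179 in lymphocyte-like cells. Adh1 was higher in tuft-like cells than in both, by 3.53 (adjusted p = 5.6e-05) and 5.76 (adjusted p = 6.99e-08).

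The genes with the most similar pattern over the 15 sums of clumps, by Pearson's r of log2(CPM + 5) among genes tested and outside the landmarks, are given as a description, since sums of 1 mouse share libraries and animals. They were Fam213a (0.977), Leap2 (0.954) and Plpp1 (0.950) for Fabp1, Crip1 (0.980) and Gsdmd (0.979) for Fabp2, and Cyp4v3 (0.982), Gda (0.981) and Asah2 (0.976) for Rbp2. For Acsl5 they were Slc7a7 (0.973), Cyp3a25 (0.965) and Mme (0.962), and for Cd36 they were Rmdn3 (0.919), Plpp1 (0.909) and Slc36a1 (0.907). Fabp6 had Mgat4c (0.890), Gm6155 (0.883) and Reg3g (0.866). Among the 7 genes themselves, the closest pairs were Acsl5 with Fabp1 (0.937) and Fabp2 with Rbp2 (0.931), while Fabp1 with Fabp2 stood at 0.721 and Fabp6 ran from -0.395 to 0.0477 with the rest.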

How the data were processed

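Mouse jejunum clumps and single cells were sorted into 384-well plates, and 3′ libraries were made by MARS-seq, which attaches a well barcode and a UMI to each captured mRNA. Per the labels and the study's methods, the authors demultiplexed with bcl2fastq 2.15.0.4, aligned to GRCm38 with zUMIs and STAR, and deposited 2 tables of raw UMI counts per gene and well, with 17162 wells of clumps and 16850 wells of single cells on 89 plates, each of which is 1 labelled sample. The well barcodes are shared by the plates by design. From the counts as deposited, clumps with at least 200 genes, over 500 UMIs and at most 30% mitochondrial UMIs were kept, without the 2% with the lowest landmark share, and of the single cells those in which UMIs numbered 200 to 7000, genes 150 to 1500 and mitochondrial UMIs up to 40%. No doublet caller was run, and no background was subtracted, since the labels do not name empty wells. Free RNA was read from the lymphocyte-like cells instead.

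Clumps were placed in the zone whose landmark list correlated best, and single enterocyte-like cells with at least 10 landmark UMIs likewise. Secretory cells with at least 5 landmark UMIs were split at the median tip score. Cells were clustered in scanpy 1.11.5 under Python 3.11.15 (2000 genes without the 7, 25 components, 20 neighbours, Leiden resolution 0.1), and a cluster was named by at least 3 markers of a type among its 50 leading genes, while 210 cells stayed unnamed. Counts were summed per mouse and group with at least 5 wells and tested in edgeR 4.0.16 (quasi-likelihood test, TMM, filterByExpr) under R 4.3.3, with Benjamini-Hochberg adjustment over all genes tested and a threshold of 0.05. DESeq2 1.42.0 was an alternative. Scripts were tested on simulated data.

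Mouse numbers name the same animal within a table. Deviations from group means of sums from 1 mouse correlated at 0.213 to 0.540 in clump zones, 0.0282 to 0.507 in enterocyte-like zones and -0.115 to 0.486 between cell types. Within a secretory type the correlations were 0.0901 to 0.220. The members, the gene lists and the tests were chosen with earlier results of these data known. The text names all 7 genes and, of each other list, the 2 highest and the 2 lowest changes past the threshold between tip and crypt clumps, landmarks left out. A gene that this rule and the pattern comparison would name is not reported here. Intervals of shares of cells cover counting error only, those of log2 changes the spread between mice, and a count of 0 is read against a floor of 3 counts. The tissue came from mice aged 8 to 12 weeks by the study's methods, and mouse 6, with clumps sorted above the DNA content of single cells, entered 1 alternative only.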

Additional observations from a re-analysis of the deposited data

Results flagged for a closer look

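In 51 groups of 4 or 5 mice tested for a sample far from the others by Dixon's criterion, 2 had one, while chance gives about 1 in 20 groups. Fabp2 in lymphocyte-like cells was at 0 in mouse 1, a sum of 12 cells, against 452 to 515 in the other mice (gap 0.878 of the range). Scarb1 in enteroendocrine-like cells was at 73.7 in mouse 1, from 1 UMI in 11 cells, against 208 to 222 in the other mice (gap 0.904 of the range).

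The 254 clumps of mouse 6, which entered no comparison above, held all of the genes. Their levels over all zones were 4092 for Fabp1, 7540.4 for Fabp2, 107 for Fabp6, 849 for Rbp2, 11.2 for Cd36 and 938 for Acsl5.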

How the results depend on the processing

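Of the 7 genes' counts of calls, 197 values under alternatives stayed within 1.5 times the main count and 13 did not. Between tip and mid-villus clumps, 1 gene (0 in the main test) was called by the DESeq2 Wald test, with mouse as a replicate block, with all landmarks (which place 92.6% of clumps in the same zone) and with mouse 6 added, in each case Fabp1, whose change ran from -1.63 to -0.89 over all alternatives. Between tip and crypt, pairs alone called 3 (5 in the main test). In single enterocyte-like cells, tip against mid-villus, leaving out 1 mouse gave 0 (without mouse 2) to 1. Goblet-like against lymphocyte-like cells gave 4 with size factors, 3 with DESeq2 and 2 with cells typed by marker sum (1 in the main test). Enteroendocrine-like against lymphocyte-like cells gave 2 with the replicate block, 2 on coding genes alone (an alternative chosen after seeing the data) and 2 by marker sum, and 0 without mouse 2 (1 in the main test). The block called Fabp1 and Acsl5 in these 2 comparisons and changed no other call of the 7 genes among the changes tested.

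Fabp6, never called, changed sign. Its tip against crypt change was -0.11 with size factors, -0.12 with DESeq2, -0.20 with the replicate block, -0.062 on coding genes, -0.55 with all landmarks, -0.042 with mouse 6 and -0.90 to 0.55 over single mice left out. Its mid-villus against crypt change was 0.069 with all landmarks and 1.48 with zones by z score (81.1% of clumps in the same zone), and its tip against mid-villus change -0.62 and -0.32. Fabp1 in tuft-like against enterocyte-like cells was at -0.041 without a filter, -0.37 by marker sum and -0.24 to 0.32 over single mice left out, and in goblet-like against lymphocyte-like cells at -0.064 on the 30 plates with lymphocyte-like cells. The cause of these changes was not tested.

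Counts over all genes moved more. Clumps gave 162 (pairs) to 1599 (block) genes between tip and mid-villus, around 543, and 1369 (pairs) to 3537 (block) between mid-villus and crypt, around 2617. Tip against crypt gave 2271 (pairs) to 4359 (no filter), around 3465. Enterocyte-like zones gave 873 (coding genes) to 2224 (no filter) for mid-villus against crypt, 244 (without mouse 2) to 1434 (block) for tip against mid-villus and 1846 to 4227 for tip against crypt. Against lymphocyte-like cells, the lowest counts, all without mouse 2, and the highest were 996 and 5857 genes in enterocyte-like (2570 in the main test), 375 and 1946 in tuft-like (1483), 492 and 2084 in goblet-like (1666) and 235 and 2057 in enteroendocrine-like cells (1166), and in B and plasma cell-like cells 74 (without mouse 3) and 752 (455). Against enterocyte-like cells they were 273 and 1981 in tuft-like (997), 329 and 1372 in goblet-like (822) and 415 and 2975 in enteroendocrine-like cells (1322), the lowest without mouse 2. The highest came without a filter on low counts, except in tuft-like and B and plasma cell-like against lymphocyte-like cells, where they came without mouse 1. Splits of goblet-like cells gave 0 to 130 genes, of tuft-like cells 0 to 4 and of enteroendocrine-like cells 0 to 3. Leaving a mouse out of the tuft-like split was not run, as no residual degrees of freedom are left. In single cells Cd36, Scarb1 and Fabp6 rest on few UMIs, and Fabp6 and Cd36 were too low to be tested between cell types.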
